A study of Homo sapiens with 4 samples.

Results

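FOXA1, GATA3, SPDEF and TBX3 encode transcription factors of luminal breast epithelium, and the open chromatin around the 4 genes was compared between 2 breast and 2 colorectal cancer lines. The loci were set as fixed hg19 windows, and a peak belonged to a locus when its summit lay inside the window: 37.95 to 38.12 Mb of chromosome 14 for FOXA1, 8.05 to 8.20 Mb of chromosome 10 for GATA3, 34.48 to 34.55 Mb of chromosome 6 for SPDEF and 115.05 to 115.20 Mb of chromosome 12 for TBX3. These windows held 115 called peaks, which merged (overlap of at least 1 bp) into 72 of the 167619 regions of the whole series: 23 at FOXA1, 19 at GATA3, 15 at SPDEF and 15 at TBX3. Some calls lay close to the window limits: at the upper limit of the FOXA1 window the T47D summit lay 0.204 kb inside it (pileup 32), and below the TBX3 window an SKBR3 summit lay 0.527 kb outside it (pileup 4).

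The assay was ATAC-seq: a transposase inserts adapters where DNA is accessible, and reads pile up there. SKBR3 and T47D are established breast cancer lines and HCT116 and RKO established colorectal cancer lines. All 4 were labelled wild type, with no treatment named; the medium was McCoy's 5A for HCT116 and SKBR3, DMEM for RKO and RPMI for T47D. Each line had 1 library, so no difference between lines or tissues has a replicate check and no test is given. The libraries kept 5450100 tags for T47D, 4313512 for SKBR3, 3262240 for RKO and 1057628 for HCT116. HCT116 was thus the shallowest library, and a missing call there says less than a missing call in RKO. Duplicates were 47% and 49% in the breast libraries and 63% in both colorectal ones, a split that cannot be told apart from tissue. The input named in the T47D header is T45D, and the labelled name is used here.

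FOXA1 is a forkhead pioneer factor that binds nucleosomal DNA and prepares sites for the estrogen and androgen receptors. GATA3 is a zinc finger factor needed for luminal cell fate in the mammary gland. SPDEF is an ETS family factor of luminal breast, prostate and mucus-secreting epithelium, including intestinal goblet cells. TBX3 is a T-box repressor required for mammary gland formation and also active in other embryonic tissues.

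The labels were first set against promoters of marker genes, counted as called when a summit lay within 1 kb of the gene start. Of 7 other luminal genes, 7 had a promoter call in T47D, 5 in SKBR3, 4 in HCT116 and 3 in RKO. These genes were chosen with earlier results of these data known. The share of all promoters called in each line was not computed, so nothing is read from the counts. The promoters of XBP1, a secretory pathway factor, and KRT18, a keratin of simple epithelia, were called in all 4 lines. Those of AGR2, a disulfide isomerase, and TFF1, a trefoil peptide induced by estrogen, were called in T47D alone. Of 4 intestinal markers, CDX2, an intestinal homeobox factor, had a promoter call in RKO and HCT116 but not in the breast lines, while CDX1, VIL1 and KRT20 were called in no line. The promoter of CDH1, which encodes E-cadherin, was called in T47D and HCT116 and in neither SKBR3 nor RKO.

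The promoter sequences of 3 of the genes are given here from RefSeq (build GRCh38.p14, each running from 250 bases before an annotated start to 50 after it), because the promoters differed in both their base composition and the lines in which they were called. They are written 5′ to 3′ on the gene's strand, with CpG dinucleotides in capitals. The peak coordinates in the text are hg19 and are not on the scale of these positions. For GATA3 the table lists 6 starts, and the closest pair, 1047 bp apart, is shown. No sequence was listed for TBX3, whose promoter was called in every line. A link between base composition and calls was not tested.
FOXA1 promoter, chr14:37595200-37595499, minus strand: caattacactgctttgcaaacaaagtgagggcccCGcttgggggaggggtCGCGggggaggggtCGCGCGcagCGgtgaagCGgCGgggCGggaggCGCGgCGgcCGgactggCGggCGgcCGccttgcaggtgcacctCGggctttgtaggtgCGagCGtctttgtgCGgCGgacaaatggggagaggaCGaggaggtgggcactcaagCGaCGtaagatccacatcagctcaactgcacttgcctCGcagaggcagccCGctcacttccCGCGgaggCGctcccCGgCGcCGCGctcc
GATA3 promoter at the fourth listed start, chr10:8053391-8053690, plus strand: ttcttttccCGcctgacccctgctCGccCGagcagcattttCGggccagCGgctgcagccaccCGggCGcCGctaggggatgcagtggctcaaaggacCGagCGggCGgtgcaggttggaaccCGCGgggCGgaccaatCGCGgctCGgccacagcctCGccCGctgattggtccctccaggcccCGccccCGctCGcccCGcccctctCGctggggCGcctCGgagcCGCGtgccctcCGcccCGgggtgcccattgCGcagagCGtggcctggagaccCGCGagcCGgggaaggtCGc
GATA3 promoter at the fifth listed start, chr10:8054438-8054737, plus strand: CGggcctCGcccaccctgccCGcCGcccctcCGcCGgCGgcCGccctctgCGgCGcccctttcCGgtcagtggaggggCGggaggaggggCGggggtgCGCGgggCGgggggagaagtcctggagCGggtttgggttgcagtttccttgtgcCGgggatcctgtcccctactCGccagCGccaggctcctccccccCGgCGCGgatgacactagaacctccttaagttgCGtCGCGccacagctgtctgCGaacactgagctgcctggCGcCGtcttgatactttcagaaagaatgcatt
SPDEF promoter, chr6:34556280-34556579, minus strand: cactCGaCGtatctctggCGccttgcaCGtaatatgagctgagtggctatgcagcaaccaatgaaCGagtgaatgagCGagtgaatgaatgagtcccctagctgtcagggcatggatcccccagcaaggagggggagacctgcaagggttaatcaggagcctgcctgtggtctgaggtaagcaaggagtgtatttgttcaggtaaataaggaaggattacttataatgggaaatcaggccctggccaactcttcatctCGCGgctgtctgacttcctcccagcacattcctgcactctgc

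The FOXA1 window held 34 CpG, the 2 GATA3 windows 36 and 29, and the SPDEF window 8, against a median of 14 (interquartile range 4 to 28) over 35116 RefSeq promoter windows of the same length. The GC content was 69.3% at FOXA1, 74.7% and 69.3% at GATA3 and 52.0% at SPDEF, with a median of 58.7% over all windows. Of the windows shown SPDEF held the fewest CpG, though within that interquartile range, and the 4 GATA3 windows not shown held 5 to 18. Searched on both strands, the forkhead core TNTTTAC matched once in the SPDEF window, as gtaaata beginning 49 bases before the start, and 10.8% of all windows hold a match. The motif TGANTCA, bound by AP-1 dimers of FOS and JUN proteins, matched in none of the 4 windows shown (7.71% of all windows), nor did the GATA core AGATAA (10.3%). A match is only a run of letters, and its absence says nothing about the factor.

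The breast lines had more called peaks at the 4 loci than the colorectal lines. They also had the deeper libraries, and the counts follow the order of the tags kept. Depth and tissue cannot be told apart here. T47D had 53 peaks and SKBR3 39, while RKO had 16 and HCT116 7. Counted as merged regions these were 53 of 72 for T47D (73.6%, with 45.3% of all regions called in that line), 39 for SKBR3 (54.2%, against 65.4%), 14 for RKO (19.4%, against 38.4%) and 7 for HCT116 (9.72%, against 22.7%). By this measure T47D stood above its share in the series and the other 3 lines below theirs. The 25 regions of T47D alone are part of the 72 and lower the shares of the other lines. Over the 540 kb of the windows T47D had 98.1 peaks per Mb. Its whole list had 26.6 per Mb of the effective genome, a ratio of 3.69. The ratio was 1.88 in SKBR3, 1.29 in RKO and 0.945 in HCT116, so by density only HCT116 stood below its list. At SPDEF the T47D density reached 6.98 times that of its list, and at FOXA1 4.20 times. HCT116 had no call at FOXA1 and 1 at GATA3. Strong calls, with a −log10 q of at least 10, made up 46.2% of the SKBR3 peaks at the loci (30.0% in its list), 35.8% in T47D (48.2%), 18.8% in RKO (30.9%) and 42.9% in HCT116 (25.1%, on 7 peaks). The larger number of T47D peaks was thus not a larger share of strong ones. The map of the loci shows every call at its distance from the gene start.

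**Figure D1:**
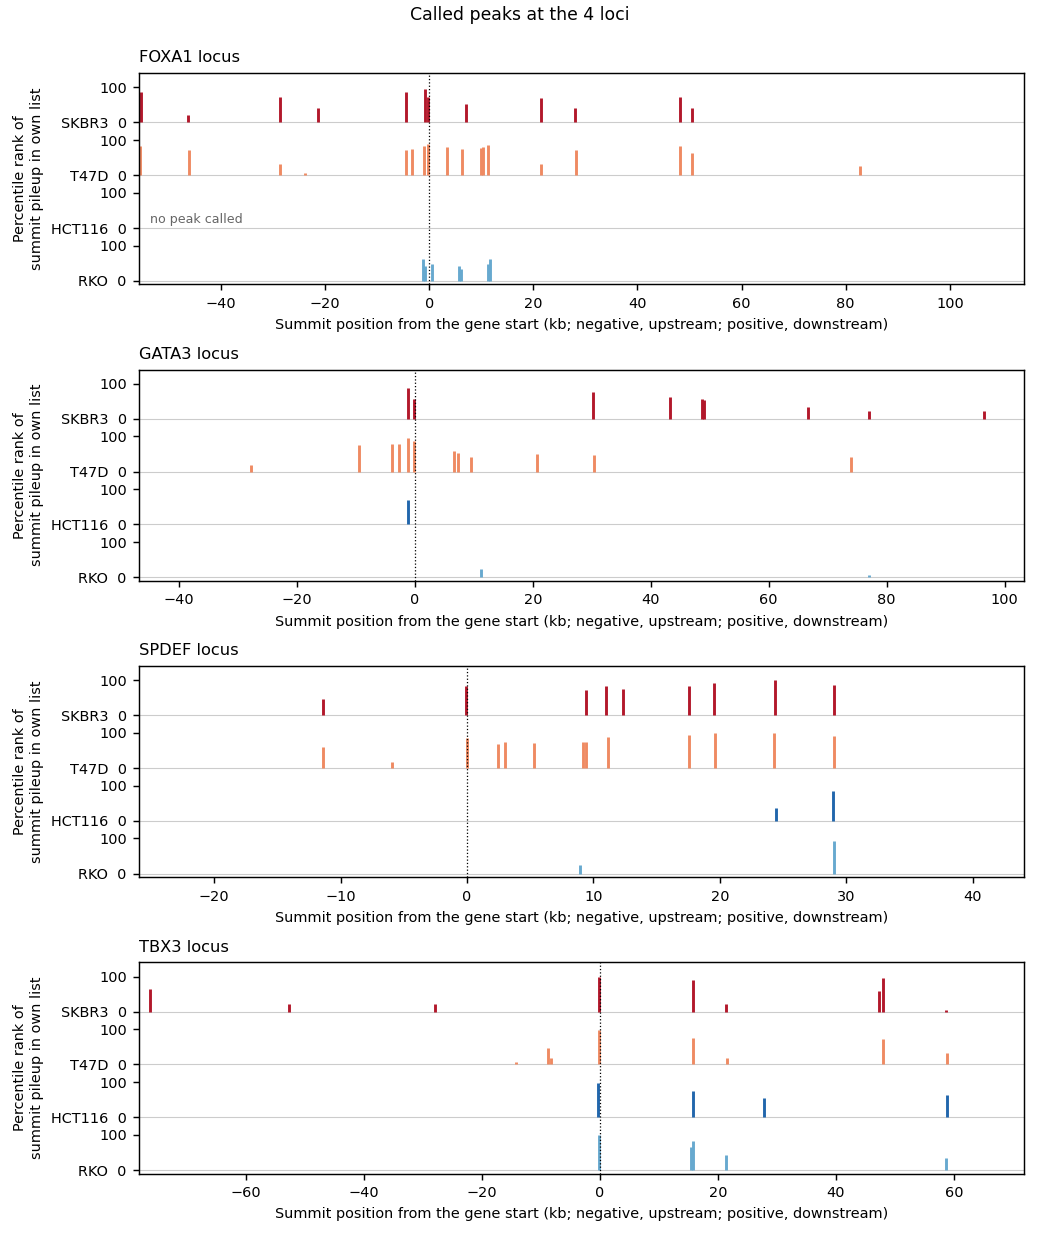
Called peaks at the 4 loci in each line. The horizontal axis is the summit position from the gene start in kb (negative, upstream; dotted line, start), and the height of each bar is the percentile rank of its summit pileup within the list of its own line, from 0 to 100. HCT116 has no call at FOXA1 and 1 at GATA3, while all 4 lines have a tall bar at the start of TBX3.

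Of the 72 regions, 19 (26.4%, exact Clopper-Pearson 95% interval 16.7 to 38.1) were called in both breast lines and in neither colorectal line, against 12.4% of all merged regions. Among regions called in both breast lines the share without a colorectal call was 19 of 27 (70.4%, 49.8 to 86.2), against 41.1% in the series. A colorectal call was present in 17 regions (23.6%, 14.4 to 35.1), against 45.5%. No region was called in both colorectal lines and in neither breast line, where the series has 1.61%, and 4 were called in all 4 lines, where it has 11.8%. The intervals cover counting error only, and regions of a locus are neighbours and not independent draws. The larger shares rest on FOXA1, with 10 of 23 regions in the breast pair only, and SPDEF, with 6 of 15. GATA3 had 2 of 19 and TBX3 1 of 15, both under the share of the series.

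T47D alone supplied 25 of the 72 regions (34.7%, 23.9 to 46.9), against 11.5% of all regions, and SKBR3 alone 11 (15.3%, 7.88 to 25.7), against 30.5%. At GATA3 the regions of T47D alone (9 of 19) outnumbered those shared by the breast lines. RKO alone supplied 6 of the 72 regions, where 14.8% of all regions were called in RKO alone. HCT116 alone supplied 1 of the 72, where 3.18% of all regions were called in HCT116 alone. When all lists were limited to 39899 peaks by q, the length of the HCT116 list, the breast pair alone held 7 of 35 regions, against 7.96% of all. Of these 7, SPDEF held 4, FOXA1 2, TBX3 1 and GATA3 0.

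**Figure D2:**
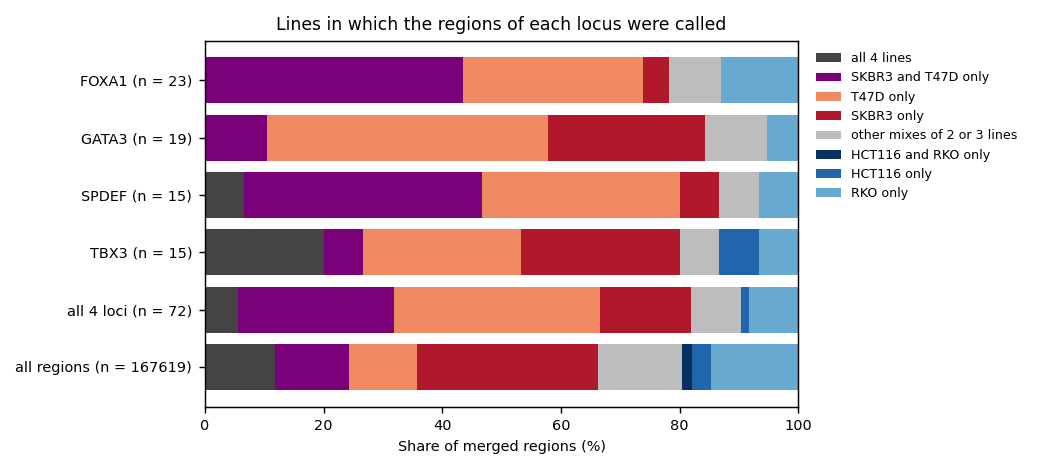
Share of merged regions (horizontal axis, %) by the lines in which they were called, for each locus, for the 4 loci together and for all merged regions, with the number of regions on the left. The part called in SKBR3 and T47D only is 10 of 23 regions at FOXA1 and 6 of 15 at SPDEF, and 2 of 19 at GATA3.

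The promoter of FOXA1 was called in both breast lines and weakly in RKO. In T47D the summit 0.177 kb upstream of the start had a pileup of 42 tags and a fold of 4.99 over the local background. In SKBR3 a peak 0.153 kb upstream had a pileup of 12 and a fold of 2.66, and a stronger one 0.896 kb upstream had 37 tags and a fold of 7.78. RKO had a summit of 6 tags 0.480 kb downstream of the start and one of 5 tags 0.742 kb upstream, and HCT116 had none. Pileup, fold and q are the values of the authors' peak caller within each library and were ranked only within a list, as the share of peaks with an equal or lower value. By pileup the strongest promoter peaks ranked at 96.0 in SKBR3, 89.8 in T47D and 48.1 in RKO. The RKO promoter calls had −log10 q values of 2.92 and 1.97 and were lost with lists of equal length and at a −log10 q of 10. Ranks from lists of different length do not by themselves show a change. The region that spans 38064840 to 38065537 of chromosome 14 was shared by SKBR3, T47D and RKO. Its RKO summit 1.11 kb upstream had 9 tags and ranked at 61.2, level with the RKO peak 11.6 kb downstream as the highest of RKO at this locus. The summit at 1.11 kb lay outside the 1 kb limit and had a −log10 q of 6.22. It was kept with lists of equal length but not at a −log10 q of 10.

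Around the FOXA1 start T47D had a row of calls. Between 11.3 kb downstream and 4.41 kb upstream it had 9 peaks with pileups of 21 to 42 tags, and their folds were only 3.25 to 6.42. The local background under these peaks, recovered from the pileup and fold, was 21.6 to 37.0 times the genome-wide level of the library, where the medians over the 4 lists lie between 1.75 and 4.13 times. Of the 53 T47D peaks at the 4 loci, 24 had a background in the highest 10.0% of their list, among them 9 at FOXA1, 10 at SPDEF and 4 at GATA3. In SKBR3 this held for 11 of 39 peaks, 7 of them at SPDEF, and in HCT116 and RKO for 1 peak each, the TBX3 promoter. This background is taken over a window of up to 10000 bp, so it contains the tags of neighbouring peaks. Its part in the ranks by fold was not tested.

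**Figure D3:**
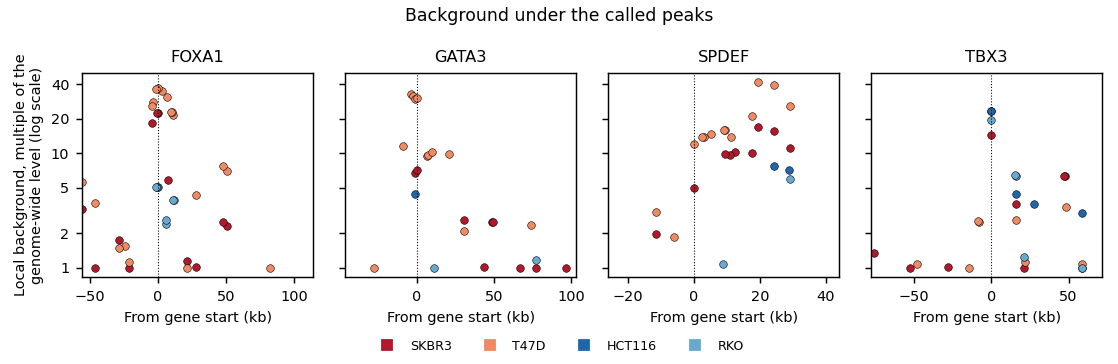
Local background under each called peak, as a multiple of the genome-wide level of its library (vertical axis, log scale), by distance from the gene start (kb; positive, downstream). T47D peaks near the FOXA1 start lie between 21.6 and 37.0 and those of RKO near the start at 5.08, while at the TBX3 start SKBR3, T47D, HCT116 and RKO all lie between 14.3 and 23.4.

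Farther from FOXA1, 8 of the 10 regions called in SKBR3 and T47D only lay 21.3 to 55.5 kb from the start. The one with the highest lower rank of the pair lay 55.5 kb upstream (chromosome 14, 38119612 to 38120153), with 22 tags and a fold of 14.7 in SKBR3 and 32 tags and a fold of 15.4 in T47D. Its ranks were 87.0 and 83.9. Of the 9113 regions of the series at least as strong in both breast lines, 13.3% lacked a colorectal call. That set holds all stronger regions, promoters included, and the share falls with strength, from 19.1% of 16280 regions to 2.87% of 279. It therefore understates the share among regions of like strength, which was not computed. The same holds for the shares of this kind given below. Upstream at 4.48 kb a region shared by the breast lines ranked at 87.0 in SKBR3 (22 tags) and 72.8 in T47D (21 tags). A region 48.1 kb downstream had 12 tags in SKBR3 and 31 in T47D, with summits 3 bp apart. The median over all regions of the breast pair alone is 31 bp, and at 28.0 kb downstream the summits lay 231 bp apart. Within the T47D list the distal calls at 28.0 kb downstream and 46.2 kb upstream, at ranks of 72.8 and 71.3, stood above those at 21.5 kb downstream and 28.6 kb upstream, both at 32.2. Within the SKBR3 list the order was the opposite, with 40.8 and 22.1 for the first pair and 68.5 and 73.8 for the second. These 4 regions were chosen after their values were seen, and other regions of the pair ranked high in both lists, such as those at 55.5 and 48.1 kb. MIPOL1 and TTC6 are the protein-coding genes beside FOXA1 in RefSeq, and the openings were not assigned to any gene.

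Of the FOXA1 regions called in T47D and not SKBR3 the strongest lay 11.3 kb downstream, with 34 tags in T47D. RKO had 2 peaks there, of 9 and 6 tags. The strongest called in SKBR3 and not T47D lay 7.12 kb downstream and had 7 tags. RKO alone had peaks of 6, 5 and 4 tags at 0.480, 5.66 and 6.12 kb downstream, and the farthest of its 7 calls at FOXA1 lay 11.6 kb from the start. In HCT116 the nearest peaks on either side of the FOXA1 start were 677 kb apart, against a median spacing of 25.7 kb, and 1.20% of its spacings were as long. SKBR3 had 31 peaks in this stretch, T47D 33 and RKO 11, and 2 regions there were called in all 3. The 1.20% counts spacings and not bases, so it understates how often a fixed position lies in so long a stretch. HCT116 was also the shallowest library.

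GATA3 had 2 neighbouring openings at its start. The one at the start (chromosome 10, 8096354 to 8096769) was called in T47D, with 39 tags and a fold of 5.55 at a summit 0.094 kb upstream, and in SKBR3, with 8 tags and a fold of 4.04 at 0.053 kb. Neither colorectal line was called there. The SKBR3 call had a −log10 q of 2.92 and was lost with lists of equal length and at a −log10 q of 10. About 1.17 kb upstream (8095365 to 8095879) lay the stronger opening, called with 57 tags in T47D, 24 in SKBR3 and 8 in HCT116, at ranks of 95.5, 88.8 and 68.3. Its summits in the 3 lines lay within 47 bp. Of the 6185 regions of the series at least as strong in both breast lines, 15.5% lacked a call in RKO, as this one did. GATA3-AS1, an antisense gene, overlaps GATA3 in RefSeq, and the peak lists cannot assign an opening to either gene. The T47D summits of the 2 openings were 1051 bp apart, next to the 1047 bp between the 2 starts whose sequences are shown. That match is one of spacing. The listed starts were not placed in hg19, so a match of position was not checked.

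At GATA3 most distal calls were made in a single line. Distal here means more than 1 kb from the gene start used. The other listed GATA3 starts were not placed in hg19, so a call counted as distal can lie at another start. A region 30.3 kb downstream (8126712 to 8127127) was the sole distal region of the breast pair without a colorectal call, with 15 tags in SKBR3 and 10 in T47D. T47D alone had peaks at 9.37, 3.86 and 2.71 kb upstream, of 24, 25 and 27 tags, and at 6.69 and 7.37 kb downstream, of 14 and 12 tags, while its other 4 regions had 5 to 11 tags. SKBR3 alone had 5 regions, with 9, 8 and 7 tags at 43.2, 48.6 and 49.0 kb downstream and 4 and 3 tags farther out. Of the 9 regions of T47D alone, 7 lay within 20.8 kb of the start, and all 5 of SKBR3 alone lay 43.2 kb or more downstream. RKO had a peak of 3 tags 11.2 kb downstream and one of 2 tags 77.0 kb downstream, the latter shared with SKBR3 (3 tags). Both lay near the lowest pileup of 2 tags in the RKO list. Beyond its call at 1.19 kb upstream, HCT116 had no peak for 3217 kb, to 11312732, where SKBR3 had 72 peaks, T47D 56 and RKO 37. In the HCT116 list 52 spacings (0.130%) were as long, and 5 regions in the stretch were called in all 3 other lines. The 0.130% again counts spacings and not bases, so it understates how often a fixed position lies in so long a stretch.

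In the breast lines SPDEF had the densest calls of the 4 loci, with 186 peaks per Mb in T47D and 129 in SKBR3, while RKO was densest at FOXA1 (41.2). The windows differ in width, at 70 kb for SPDEF, 150 kb for GATA3 and TBX3 and 170 kb for FOXA1. The SPDEF promoter (chromosome 6, 34523817 to 34524257) was called in SKBR3 with 19 tags and a fold of 10.8 and in T47D with 35 tags and a fold of 10.3, with summits 0.051 and 0.016 kb upstream. Neither colorectal line was called there: the nearest summit lay 8.97 kb away in RKO and 24.4 kb away in HCT116. The ranks were 83.7 in SKBR3 and 85.9 in T47D, and of the 9459 regions at least as strong in both breast lines 13.3% lacked a colorectal call. SPDEF was the sole gene of the 4 without a colorectal summit within 2.5 kb of its start.

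By pileup, the strongest peaks of T47D and SKBR3 at the 4 loci lay 24.4 kb downstream of the SPDEF start (34499485 to 34500122). T47D had 96 tags there, at rank 99.9 of its list, and SKBR3 54 tags, at rank 99.1. By fold these peaks, at 10.6 in T47D (rank 70.8) and 14.8 in SKBR3, stood below the FOXA1 region 55.5 kb upstream in T47D (15.4) and the TBX3 region 48.0 kb downstream in SKBR3 (16.3). HCT116 had a weak call of 4 tags, with a −log10 q of 2.12 and a rank of 35.4, and RKO had none. Of the 279 regions of the series at least as strong in both breast lines, 7.53% lacked a call in RKO and 2.87% lacked a call in both colorectal lines. The next opening, 19.6 kb downstream (34504232 to 34504709), had 74 tags in T47D and 30 in SKBR3, at ranks of 98.7 and 92.9, and no colorectal call. Of the 3683 regions at least as strong, 8.04% had none, and this set again includes all stronger regions. Openings at 17.5 and 11.1 kb downstream were also confined to the breast pair among these 4 lists, with 54 and 37 tags in T47D and 18 and 19 in SKBR3. At 17.5 kb the summits of the lines lay 5 bp apart, and at 11.1 kb 212 bp apart. Upstream of the start the breast pair shared 1 region, 11.4 kb away, with 14 tags in T47D and 6 in SKBR3. Whether the openings lie within SPDEF, within a neighbouring gene or between genes was not assigned, as no hg19 annotation was used here. PACSIN1 and ILRUN are the neighbouring protein-coding genes in RefSeq.

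A single SPDEF region was open in all 4 lines, 29.0 kb downstream of the start (34494970 to 34495333). It had 32 tags in RKO, 13 in HCT116, 47 in T47D and 22 in SKBR3, and its 4 summits lay within 40 bp. RKO gave it the highest fold of the locus, 19.4, at rank 99.5 by fold and 93.2 by pileup. The other colorectal calls at the locus were the weak one of HCT116 described above and an RKO peak of 3 tags 8.97 kb downstream. T47D alone had peaks at 2.47, 2.99, 5.29 and 9.18 kb downstream, of 19, 21, 20 and 22 tags, and one of 5 tags 5.95 kb upstream. SKBR3 alone had a peak of 13 tags at 12.4 kb downstream.

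TBX3 differed from the other loci. Its promoter (chromosome 12, 115121894 to 115122750) was called in every line: SKBR3 had 51 tags, T47D 76, HCT116 27 and RKO 46. In the same order the folds were 14.9, 13.3, 14.7 and 14.3, and the ranks by pileup were 98.9 in both breast lines, 98.5 in HCT116 and 98.6 in RKO. The promoter peak was thus near the top of each list, and by pileup it was the strongest peak of all 4 loci in both HCT116 and RKO. By fold the RKO peak 29.0 kb downstream of SPDEF stood above it (19.4). With equal list length SKBR3 ranked it at 96.8, T47D at 97.9, RKO at 97.6 and HCT116 at 98.5. A promoter peak of this rank was thus also called in the shallowest library.

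A distal TBX3 region 15.9 kb downstream (115105993 to 115106332) was also called in all 4 lines, where SKBR3 had 24 tags, T47D 22, RKO 20 and HCT116 9. Its 4 summits fell within 9 bp, where the median spread over the 19761 regions called in all lines is 64 bp. At the TBX3 promoter the spread was 107 bp, above that median. The third region called in all lines lay 58.8 kb downstream and was weak, at 7 tags each for T47D and HCT116, 4 for RKO and 2 for SKBR3. The region of the breast pair alone lay 48.0 kb downstream (115073660 to 115074292), with 33 tags and a fold of 16.3 in SKBR3 and 20 tags and a fold of 12.3 in T47D. It ranked at 94.5 in SKBR3 and 71.3 in T47D, and 19.1% of the 16280 regions at least as strong lacked a colorectal call. The strongest region of SKBR3 alone had 10 tags 76.3 kb upstream and that of T47D alone 10 tags 8.81 kb upstream. HCT116 alone one of 6 tags 27.9 kb downstream, and RKO alone one of 10 tags 15.4 kb downstream. TBX3-AS1 overlaps the gene in RefSeq.

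Put side by side, promoter calls were present in 8 of 8 pairs of gene and line in breast and in 3 of 8 in colorectal, these 3 being TBX3 in HCT116 and RKO and FOXA1 in RKO. The share of all gene promoters called in each line was not computed, as no hg19 annotation was used here, so with lists of 39899 to 111635 peaks nothing is read from 8 against 3. T47D had 49 distal peaks and SKBR3 34, against 13 for RKO and 6 for HCT116. Distal was counted from a single start per gene, so at GATA3 these counts can include peaks at other listed starts. Among the 66 distal regions 16 were called in the breast pair alone (24.2%, 14.5 to 36.4), and 14 had a colorectal call (21.2%, 12.1 to 33.0). No share over the distal regions of the series was computed. Over all its regions, promoters included, the shares are 12.4% and 45.5%. The median rank by pileup of the peaks at the loci was 72.8 for T47D, 68.5 for SKBR3, 68.3 for HCT116 and 45.2 for RKO, where the median over a whole list is 50.7 to 55.4 because of ties. The HCT116 median rests on 7 peaks.

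The gap between the tissues in rank depended on the value ranked. The strongest peak per locus and line, taken by the value ranked, had a median rank by pileup of 97.4 over 8 breast values and of 85.4 over 7 colorectal values. FOXA1 in HCT116 had no call and was left out, which can only raise the colorectal median. By fold enrichment the medians were close, at 88.0 and 88.6, and by −log10 q they were 94.2 and 87.6. The difference between ranks by pileup and by fold was large in T47D. Its peaks at the 4 loci had a median rank of 72.8 by pileup and 30.2 by fold. The T47D promoter peaks of FOXA1 and GATA3, with 42 and 39 tags, ranked at only 25.4 and 30.2 by fold, and the FOXA1 promoter peak of RKO, with 6 tags, at 31.4. The SPDEF promoter stayed high by both, at 85.9 and 69.5 in T47D and 83.7 and 84.9 in SKBR3.

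**Figure D4:**
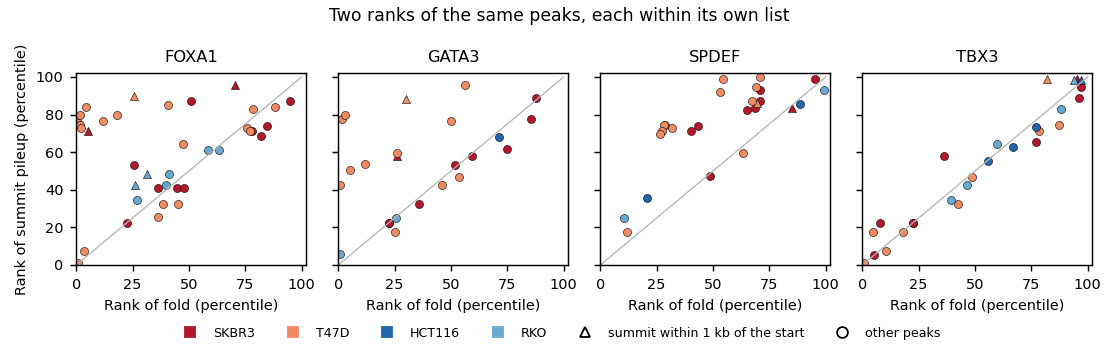
Percentile ranks of summit pileup (vertical axis) and of fold enrichment (horizontal axis) for each peak within its own list, by locus; colours are lines, triangles are summits within 1 kb of the gene start, and the grey line marks equal ranks. For T47D, 13 of 19 peaks at FOXA1, 9 of 12 at GATA3 and 12 of 13 at SPDEF lie above the line, among them the FOXA1 promoter at 89.8 by pileup and 25.4 by fold, and 3 of 9 at TBX3, while the TBX3 promoter lies at the upper right in all 4 lines.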

How the data were processed

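ATAC-seq peak lists of 4 cell lines, 1 library each, were used as deposited by the authors. Reads were single-end, 60 bp, per the labels; the submitters' processing notes name the aligner Bowtie2 (2.4.1), the caller MACS3 (3.0.0b3) and the build hg19; read filters are not given in the sources used here. Per the file headers, peaks were called per library without a control, at a q cutoff of 0.1, with 1 tag kept per position and fragments of 105 to 117 bp. No shift to the transposase cut site is named there, so summits mark stacked fragments and not insertion points. The deposited pileup is a signal in tags, unscaled between libraries; the fold is the authors' ratio over local background, read here as (pileup + 1) / (background + 1); the −log10 p-value and q-value are the authors'. Peak length and summit are in bp.

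Chromosomes 1 to 22 and X were used. Merging of peaks was tested on simulated data, and shares have exact Clopper-Pearson 95% intervals, which cover counting error only. Local background was solved from pileup and fold and divided by tags × fragment length / 2910000000 bp. Gene starts are the known hg19 RefSeq starts, taken from general knowledge and not from a file; promoter calls lie within 1 kb of them. Named regions were the promoters, each line's strongest peak, the top 3 of the breast pair, the top region of a single breast line and the top colorectal regions without a breast call; others named were chosen after their values were seen. The members, windows and gene lists were chosen with earlier results of these data known. Alternatives were a −log10 q of at least 10, lists of equal length, windows 50 kb wider, 50% overlap, colorectal calls with a −log10 q under 5 ignored, promoter distances of 0.5 and 2.5 kb, and other ranked values. Python 3.11.15, pandas 2.3.3, numpy 2.4.6, scipy 1.17.1 and matplotlib 3.10.9 were used.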

Additional observations from a re-analysis of the deposited data

How the results depend on the processing

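At the 4 loci the order of T47D, SKBR3, RKO and HCT116 in called peaks (53, 39, 16 and 7) held with windows widened by 50 kb, at 64, 63, 22 and 11. Restricting to peaks with −log10 q of 10 or more gave 19, 18, 3 and 3, and with lists of equal length 24, 19, 7 and 7, so that RKO and HCT116 were level under both. Regions of the breast pair without a colorectal call numbered 19 of 72 as deposited (26.4%, against 12.4% of all regions). There were 9 of 25 (36%, against 15.9%) at the q threshold and 7 of 35 (20%, against 7.96%) with lists of equal length. Wider windows gave 22 of 105 (21%, against 12.4%). By locus these were 11 of 29 at FOXA1, 7 of 29 at SPDEF, 3 of 23 at GATA3 and 1 of 24 at TBX3. An overlap of at least 50% of the shorter peak gave 19 of 73 (26.0%, against 11.9%). Ignoring colorectal calls with a −log10 q under 5 gave 20 of 72 (27.8%, against 16%), or 74.1% against 52.9% of regions called in both breast lines, where the lists as deposited gave 70.4% against 41.1%. Breast promoter calls numbered 8, and 7 at the q threshold or with lists of equal length, where the GATA3 promoter of SKBR3 was lost. Colorectal promoter calls numbered 3, and 2 under these settings; a distance of 2.5 kb gave 4, adding GATA3 in HCT116. The median rank of the strongest peaks was 97.4 in breast and 85.4 in colorectal lines by pileup, 88.0 and 88.6 by fold, 94.2 and 87.6 by −log10 q, and 94.0 (8 values) and 87.1 (6 values) with lists of equal length. The cause of these shifts was not tested, apart from the stricter lists holding fewer peaks by construction. No paired analysis was possible because each line has 1 library. At 1057628 tags in HCT116, a missing call shows that a peak was not detectable at that depth and not that the site was closed.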

Other observations

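Among the other luminal genes, the promoter of XBP1 had its highest summit at 49 tags for T47D, 43 for SKBR3, 28 for RKO and 24 for HCT116. KRT8, the keratin partner of KRT18, had 76 tags in T47D, 44 in SKBR3 and 16 in HCT116, and no promoter call in RKO, whose nearest summit lay 1.14 kb from the start. MYB, a transcription factor of estrogen receptor positive breast cancer and of the intestinal crypt, had 21 tags in T47D, 13 in SKBR3 and 13 in RKO, and no promoter call in HCT116. MLPH, which encodes melanophilin, had 34 tags in T47D, 14 in SKBR3 and 4 in HCT116. The CDX2 promoter had 15 tags in RKO and 5 in HCT116, and T47D had a summit 1.21 kb from its start. At CDH1 the promoter pileup was 49 tags in T47D and 13 in HCT116, while the nearest summits of SKBR3 and RKO lay 5.23 kb away. A further RefSeq start of GATA3, the sixth listed, has a match to TGANTCA, written tgactca, 8 bases before the start.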
